A study of Mus musculus with 12 samples.

Results

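Chemokines are small secreted proteins that guide the movement of leukocytes, and chemokine receptors are the G protein-coupled receptors through which cells sense them. The genes examined here are a named set of 49 mouse genes, made up of 33 ligands (14 CXC, 17 CC, 1 CX3C and 1 XC) and 16 receptors. They were chosen by name and looked up in the gene column of the copy-number segment tables of both lines. In each line 48 of the 49 genes were found, among 21139 autosomal gene names in that table. The exception was Ccl28, a mucosal CC ligand, which the gene columns do not name.

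Genomic DNA of 2 primary murine pancreatic ductal adenocarcinoma (PDAC) lines, 15376T and 14837T, was studied by whole-exome sequencing (WES), with 1 library per line. The libraries are labelled WES-15376T and WES-14837T, and each is called below by the name of its line. Both lines came from C57BL/6 mice with a ROSA26-LSL-rtTA-IRES-GFP allele, p48-Cre and 1 floxed Trp53 allele (Trp53 L/+). These are alleles of the mice, and whether each line kept all of them was not examined here. The p48 (Ptf1a) promoter drives Cre in pancreatic cells, and the cells were grown in DMEM with serum, antibiotics and doxycycline. GEO's labels give the genotype of both as WT and the treatment of neither. The labelled cell type cannot be checked from DNA copy number. Each line is a single line with no replicate, which allows no statistical test of one line against the other, and no p-value is given.

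Many chemokine genes stand in tandem clusters that arose by gene duplication. CXC ligands such as Cxcl1 and Cxcl2 draw neutrophils through Cxcr2, and Cxcl9, Cxcl10 and Cxcl11 draw T cells. CC ligands such as Ccl2 draw monocytes through Ccr2, and Ccl5 draws several leukocyte types. In pancreatic cancer this family is known for the recruitment of myeloid cells by tumor cells and fibroblasts. The present values are DNA copy numbers of tumor cells and carry no information on expression.

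In the deposited tables, adjacent bins of like coverage are joined into segments. Each segment has a log2 ratio of coverage, an integer copy number called by the authors, a B-allele fraction (BAF, the share of reads at variant positions that carry the alternative base), a read depth and a number of bins. All genes within a segment share these values. The 48 genes fell into 15 segments of 15376T and 18 segments of 14837T, so the counts of genes below are not counts of separate events. Segments called at 2 copies had an SD of log2 of 0.090 in 15376T (103 segments) and 0.095 in 14837T (96 segments). This SD is used below only as a yardstick. The call itself keeps these segments between a log2 of -0.25 and 0.2, which limits the SD. It is not the error of 1 segment or of a difference between the lines, and multiples of it are not test statistics. The mean depth was 43.4 in 15376T and 47.5 in 14837T. Capture probes were of a human exome kit, named as NimbleGen in the methods and as Agilent SureSelect in the labels, and the part that this plays in any value was not tested.

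The 25 bases just before a transcript start are shown for 7 of the 37 genes that have a window in the RefSeq promoter table of GRCm38.p6. These 7 were picked from a search of the windows for a sequence pattern, which is not reported here. They belong to 5 of the clustered CXC ligands of chromosome 5, which had the same copy number and the same segment borders in both lines, and the receptors Ccr3 and Ccr6, whose call differed between the lines. Each is written 5′ to 3′ on the strand of its gene, in lower case with no base marked.
Cxcl3 (chr5:90786076-90786100, plus strand): aaggggttcgcagggccctggagcc
Cxcl1 (chr5:90891220-90891244, plus strand): gctcgcgggagccctagagctccac
Cxcl2 (chr5:90903874-90903898, plus strand): gactgcgcctcagtgcctccaacaa
Cxcl9 (chr5:92328080-92328104, minus strand): tatgatccccaagaacatgctctct
Cxcl10 (chr5:92348890-92348914, minus strand): tgcagataaatactcctcagcagcc
Ccr3 (chr9:124021946-124021970, plus strand): actcaacagagagccaagtatgtgc
Ccr6 (chr17:8236018-8236042, plus strand): ccctcctgcctccacctttgctacc
Cxcl1, Cxcl2 and Cxcl3 are read in the direction opposite to Cxcl9 and Cxcl10. The starts are those of the promoter table. For the 5 CXC ligands they are the start of the gene. For Ccr3 the start lies 4146 bases inside the gene, so its stretch is internal to it. Ccr6 has 2 starts in the table, and the one shown lies 2 bases inside the gene. The genes without a window were Ccl2, Ccl4, Ccl5, Ccl7, Ccl11, Ccl24, Ccr7, Ccr10, Cxcl5, Cxcl11, Cxcl16 and Cxcr5. The copy number of these stretches is that of the segment that covers the gene, and no bin is reported for them alone.

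The first question was which chemokine genes were lost or gained in each line. In 15376T, 10 genes were at 1 copy (9 receptors and the ligand Ccl25), 0 were gained and 38 were at 2 copies. In 14837T, 1 gene was at 1 copy (the ligand Cxcl14), 1 was at 3 copies (the receptor Ccr6) and 46 were at 2 copies. The share lost in 15376T was 20.8%, against 30.0% of all autosomal genes, and the share gained was 0%, against 9.13%. In 14837T the shares were 2.08% lost, against 28.8%, and 2.08% gained, against 21.5%. All 4 shares lay below those of all genes, and that difference was not tested. The median log2 of the set was 0.056 in 15376T and -0.03 in 14837T, beside -0.02 and -0.05 over all autosomal genes. Genes of 1 segment count separately here, and the 0.056 is the log2 of 1 chromosome 11 segment that holds 13 genes of the set.

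A different copy number in the 2 lines was called for 12 of the 48 genes (10 receptors and 2 ligands), or 25%, against 29.3% of all genes. The other 36 (75%) were at 2 copies in both, against 41.5% of all genes. None was lost in both, against 22.4% of all genes, or gained in both, against 6.87%. These differences were not tested, and the genes share few segments. Of the 12 genes, 10 were lost in 15376T and at 2 copies in 14837T, a pattern seen in 6.43% of all genes. Those 10 genes lie in 2 segments, and 9 of them are in 1.

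**Figure D1:**
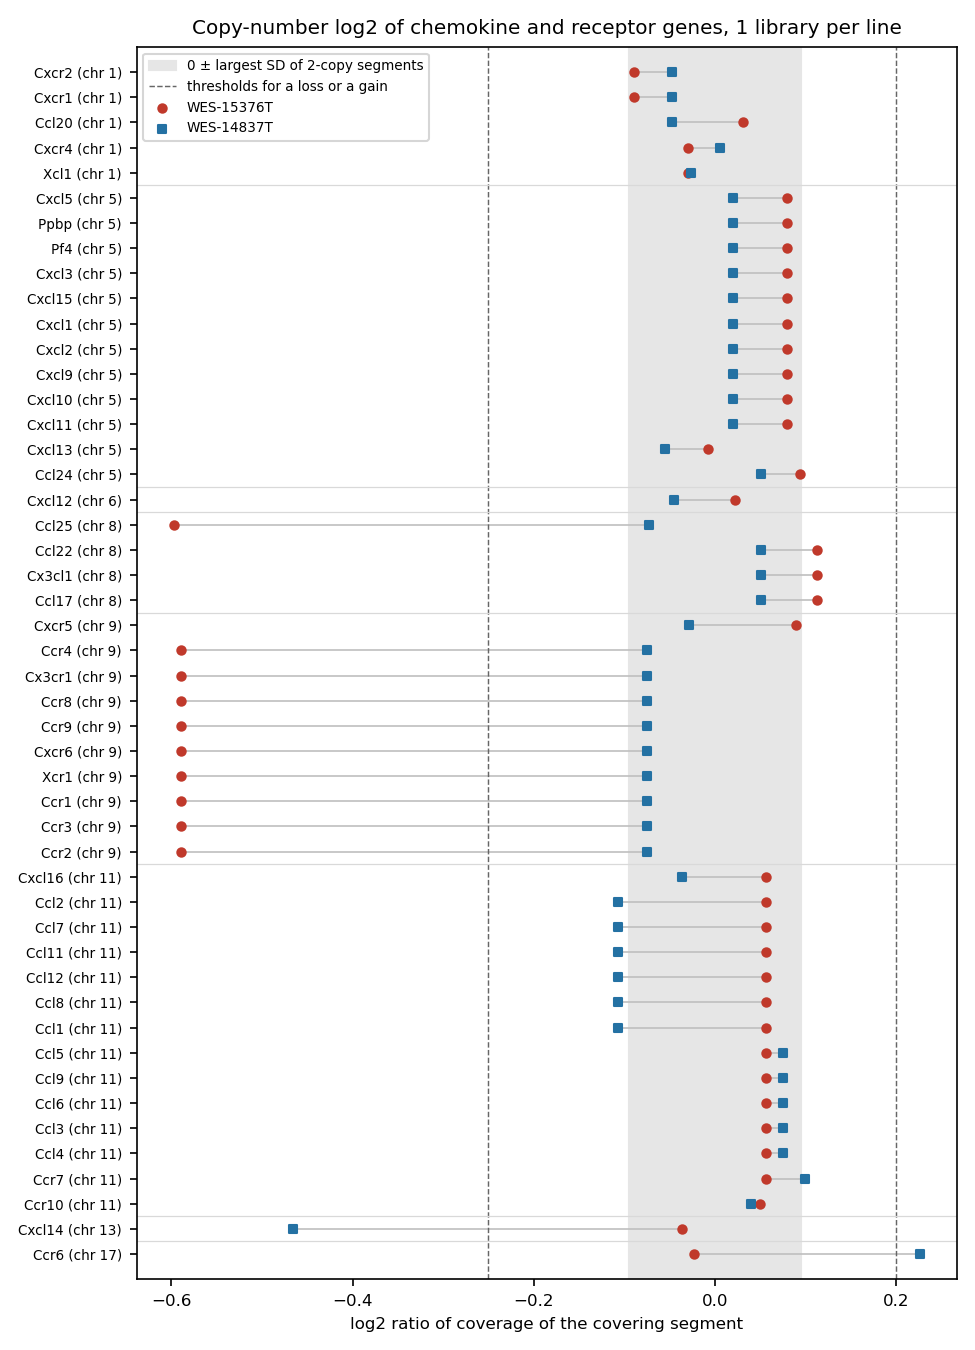
Log2 ratio of coverage of the segment that holds each gene (x axis), for the 48 genes in chromosome order (y axis), with 1 point for 15376T (circles) and 1 for 14837T (squares). The gray band is 0 ± 0.095, the larger SD of log2 among 2-copy segments, and the dashed lines are the thresholds of a loss (-0.25) and a gain (0.2). Ccl25 and 9 receptors of chromosome 9 lie near -0.6 in 15376T alone, while Cxcl14 and Ccr6 pass a threshold in 14837T alone.

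The largest group was on distal chromosome 9, where the genes of 9 receptors were at 1 copy in 15376T and at 2 copies in 14837T. These were Ccr4 (chr9:114490316-114505476), the receptor of Ccl17 and Ccl22, and a cluster of 8 genes from Cx3cr1 (start 120048683) to Ccr2 (end 124109140), which spans 4060 kb. Their segment had a log2 of -0.59 in 15376T (chr9:110573583-124160929, 1583 bins, depth 30.0). The segment at the same place in 14837T had a log2 of -0.08 (chr9:110519003-124160929, 1601 bins, depth 45.4). The difference of -0.51 was 5.39 times the larger SD of 2-copy segments, and it exceeded in size the difference of 94.0% of all genes. The ratio of the uncorrected segment depths, each set against the 2-copy depth of its line, gave a like log2 of -0.55. The log2 of -0.59 lies between 0 and -1, the ratio left when all cells of a diploid line keep 1 copy, and the ploidy of the lines was not measured.

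The 8 clustered genes stand in the order Cx3cr1, Ccr8, Ccr9, Cxcr6, Xcr1, Ccr1, Ccr3 and Ccr2. Cx3cr1 is the fractalkine receptor of monocytes, and Ccr8 is the receptor of Ccl1. Ccr9 responds to Ccl25, Cxcr6 to Cxcl16, and Xcr1, a marker of cross-presenting dendritic cells, to Xcl1. Ccr1 is a receptor of Ccl3 and Ccl5, Ccr3 is the eotaxin receptor of eosinophils, and Ccr2 is the receptor of Ccl2. The segments of both lines run past Ccr2 to the last end given for chromosome 9, which lies 51.8 kb beyond that gene, so no border separated any of the 9 receptors from another. The BAF of the segment was 0.098 in 15376T and 0.057 in 14837T, near the autosomal medians of 0.077 and 0.061.

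The loss was wider than the receptor genes. In 15376T, 62.3% of the covered length of chromosome 9 was lost, against 1.89% in 14837T. Cxcr5 (chr9:44511787-44526444), the receptor that guides B cells to follicles, was at 2 copies in both lines, with a log2 of 0.089 in 15376T and -0.03 in 14837T. The first lost segment of 15376T began at 26320927, before Cxcr5, with a log2 of -0.27, and after the 2-copy segments around Cxcr5 the losses ran on to the end of the chromosome.

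**Figure D2:**
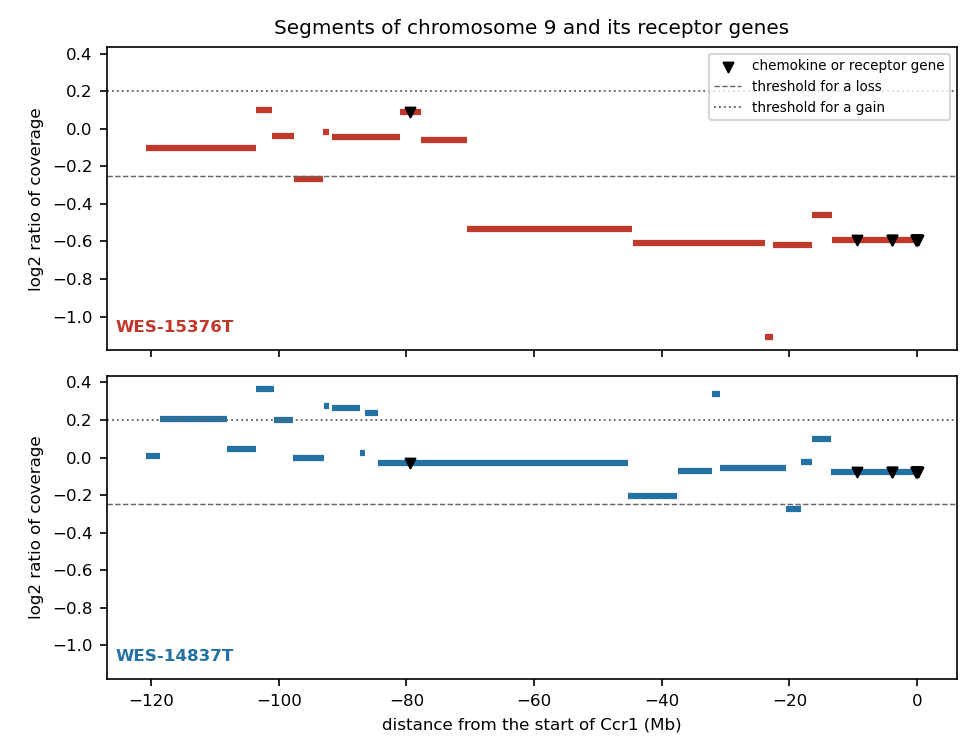
Log2 ratio of coverage of each segment of chromosome 9 (y axis) by distance from the start of Ccr1 in Mb (x axis), in 15376T (top) and 14837T (bottom), with triangles at the receptor genes and lines at the thresholds of a loss and a gain. In 15376T the 9 distal receptors sit at -0.59 in a long run of lost segments, in 14837T they sit at -0.08, and Cxcr5 lies between the thresholds in both.

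The gene tables hold only genes whose segment lies 0.40 or more from 0 on the log2 scale, each with the log2 of its segment but with a read depth of its own. They list 10 of the chemokine genes in 15376T, 1 in 14837T and 0 in both, so own depths could not be set against each other between the lines. All 9 receptors had an own depth above that of their segment, by a log2 of 0.13 to 0.80 (median 0.47). For Ccr4 it was 35.4 (1 bin), for Cx3cr1 32.8 (1 bin) and for Ccr8 33.3 (1 bin), the 3 nearest to the segment depth of 30.0. Own depth is not corrected for capture, and it exceeded that of the segment in 62.9% of the 7398 listed genes with 1 segment in 15376T.

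The other 6 receptors were further above it. Ccr1 had 39.7 (1 bin), Cxcr6 41.7 (1 bin) and Xcr1 45.6 (1 bin). Ccr3 had 44.0 (3 bins), Ccr2 49.0 (4 bins) and Ccr9 52.5 (2 bins). Thus Ccr9 and Ccr2 were above 46.0, the mean depth of 2-copy segments of that line, by a log2 of 0.19 and 0.091, while the other 7 were below it. The 147 listed genes of the same segment had a median of 0.15 above the segment on the log2 scale, and the 23 of them with 1 bin had 0.16. Over all listed genes with 1 bin the median was 0.38 with an SD of 0.89 (n = 1258), so an own depth from 1 bin varied by more than the shift of the segment. For listed genes with 2 to 4 bins the median was 0.095 with an SD of 0.64 (n = 1631). Against the segment, Ccr9 was higher than 86.8% of these, Ccr2 than 83.6% and Ccr3 than 77.9%.

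**Figure D3:**
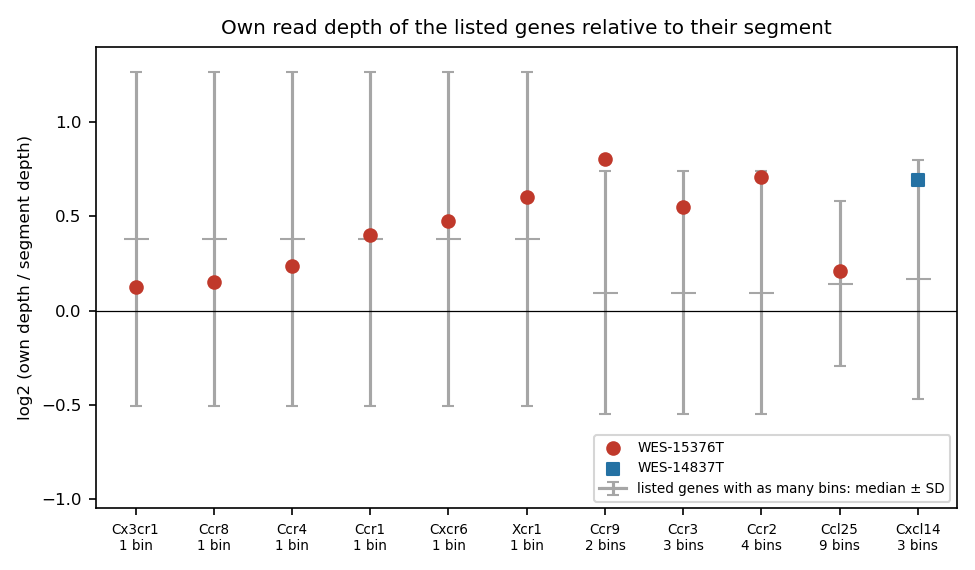
Log2 of the own read depth of each listed gene over the depth of its segment (y axis), for the 10 genes listed in 15376T (circles) and Cxcl14, listed in 14837T (square), with the number of bins under each name (x axis). Gray marks are the median and SD of all listed genes of that line with a like number of bins (1, 2 to 4, at least 5). All 11 points are above 0, and Ccr9 (0.80) is the one above its gray bar.

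The remaining receptors were Cxcr1, Cxcr2, Cxcr4, Ccr6, Ccr7 and Ccr10. Cxcr2 and Cxcr1, the neutrophil receptors, share a chromosome 1 segment in both lines, at a log2 of -0.09 in 15376T and -0.05 in 14837T. Cxcr4, the receptor of Cxcl12, had a log2 of -0.03 and 0.0052, respectively. These were at 2 copies in both lines and differed between them by less than the SD of 2-copy segments. In 15376T a border lay 152 kb beyond Cxcr1, and the step across it was small, as the next segment had a log2 of 0.031.

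Ccr6 (chr17:8236041-8258519), a receptor of lymphocytes and dendritic cells, was the gene called gained. Its segment had a log2 of -0.02 in 15376T and 0.23 in 14837T (chr17:6960990-16464922, 723 bins, depth 60.4). The difference of -0.25 was 2.61 times the larger SD of 2-copy segments, and the value in 14837T is close to the threshold of 0.2. Its ligand Ccl20 (chr1:83116766-83119167) was at 2 copies in both lines, with a log2 of 0.031 in 15376T and -0.05 in 14837T.

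Among the ligands, the 10 clustered CXC genes of chromosome 5 were at 2 copies in both lines. They run from Cxcl5 (start 90759298) over Ppbp, Pf4, Cxcl3, Cxcl15, Cxcl1, Cxcl2, Cxcl9 and Cxcl10 to Cxcl11 (end 92363296), a span of 1604 kb. Cxcl1, Cxcl2, Cxcl3, Cxcl5 and Ppbp act on neutrophils, Pf4 is platelet factor 4, and Cxcl9 to Cxcl11 are induced by interferon. The segment had the same borders (chr5:88109447-93393072) and 611 bins in both lines, with a log2 of 0.079 in 15376T and 0.020 in 14837T. Its uncorrected depth stood above the 2-copy depth in both lines, by a log2 of 0.22 in 15376T and 0.17 in 14837T. The BAF was 0.050 and 0.054, respectively. Cxcl13, the B cell attractant that pairs with Cxcr5, lies beyond that segment and had a log2 of -0.01 in 15376T and -0.06 in 14837T.

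The CC ligands of chromosome 11 were also at 2 copies in both lines, but their segments had a high BAF. In 15376T, 1 segment (chr11:3133019-99620437, 11932 bins, 96.5 Mb) with a log2 of 0.056 and a BAF of 1 held 13 of the 14 genes of the set on that chromosome. These are Cxcl16, the 11 Ccl genes and Ccr7, the receptor that guides cells to lymph nodes. Only Ccr10, a receptor of skin-homing T cells, lay beyond it, with a log2 of 0.050 and a BAF of 0.040. In 14837T the stretch with a BAF of at least 0.9 was shorter, 17.9 Mb over 5 segments (chr11:71172030-89088733), and held the 11 Ccl genes.

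In 14837T, Ccl2, Ccl7, Ccl11, Ccl12, Ccl8 and Ccl1 (chr11:82035577-82179812) were in a segment with a log2 of -0.11 and a BAF of 1 (170 bins, depth 40.5). Ccl2, Ccl7 and Ccl12 act on monocytes, Ccl11 is an eotaxin and Ccl1 pairs with Ccr8. Ccl5, Ccl9, Ccl6, Ccl3 and Ccl4 (chr11:83525778-83664683) were in the next segment, with a log2 of 0.075 and a BAF of 0.97 (1063 bins, depth 57.3). Ccl3 and Ccl4 are the macrophage inflammatory proteins, and Ccl6 and Ccl9 are rodent relatives of that group. The border between these segments lay between the genes Slfn8 and Slfn10-ps, 838 kb beyond Ccl1 and 497 kb before Ccl5, and log2 on the Ccl2 side minus that on the Ccl5 side was -0.18. The line 15376T had no border there.

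Between the lines the Ccl2 group differed by 0.16 on the log2 scale (15376T higher), 1.71 times the larger SD, and the Ccl5 group by -0.02. The difference of 0.16 was the largest among the 36 genes at 2 copies in both lines. In uncorrected depth, set against the 2-copy depth of 14837T, the log2 was -0.23 for the Ccl2 group and 0.27 for the Ccl5 group, so the contrast across the border was larger in uncorrected depth than in log2. The calls of 2 copies rest on log2.

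Cxcl16, the ligand of Cxcr6, had a BAF of 1 in 15376T and 0.027 in 14837T, with a log2 of 0.056 and -0.04, respectively. Ccr7 had a BAF of 1 and 0.056, with a log2 of 0.056 and 0.10. Ccr10 had a low BAF in both lines (0.040 and 0.055). Thus Cxcl16 and Ccr7 were inside the stretch of high BAF in 15376T only. In 14837T the segment of Cxcl16 ended 709.9 kb beyond the gene, and the stretch of high BAF began there with a segment of 19 bins (chr11:71172030-71285291) that was called at 0 copies, with a log2 of -8.74 and a depth of 10.9. Both lines had a border after position 99620437, between Ccr7 and Ccr10.

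A BAF of at least 0.9 was given to 13 of the 48 genes (27.1%) in 15376T, against 6.28% of all genes with a BAF. In 14837T it was given to 11 (22.9%), against 1.63%. The 11 Ccl genes had it in both lines, as did 1.65% of all genes with a BAF in both. These genes are neighbors in 1 segment of the first line and 2 of the second, so that the shares describe 1 region of chromosome 11. Of the segments with such a BAF, 3 of 4 in 15376T and 1 of 6 in 14837T were on other chromosomes. The number of variants behind a BAF is not part of the tables, so its precision is unknown.

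**Figure D4:**
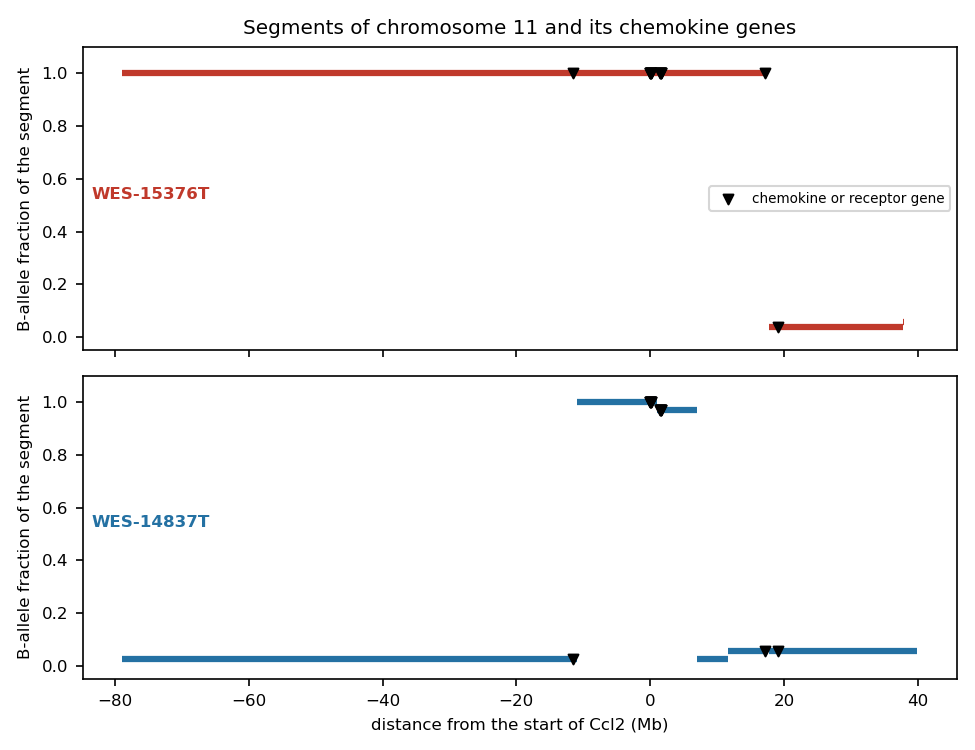
B-allele fraction of each segment of chromosome 11 that has one (y axis) by distance from the start of Ccl2 in Mb (x axis), in 15376T (top) and 14837T (bottom), with triangles at the chemokine and receptor genes. The fraction is 1 over 96.5 Mb in 15376T and at least 0.97 over 17.9 Mb in 14837T, and the 11 Ccl genes lie in that range in both.

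Among the other ligands, Ccl25 (chr8:4325205-4360020), which draws T cells to the gut through Ccr9, was lost in 15376T. Its segment had a log2 of -0.60 (chr8:3153903-13373138, 891 bins, depth 28.1), against -0.07 in 14837T (chr8:3153903-15895915, 1134 bins). The difference of -0.52 was 5.50 times the larger SD and exceeded in size that of 95.6% of all genes. Its own depth, 32.5 over 9 bins, was the one among these genes with at least 5 bins, and its log2 over the 2-copy depth was -0.50. So the genes of both Ccl25 and its receptor Ccr9 were called at 1 copy in 15376T, on different chromosomes, while the own depth of Ccr9 was above the 2-copy depth.

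Cxcl14 (chr13:56288643-56296811), a CXC ligand made by epithelia and fibroblasts, was lost in 14837T. Its segment had a log2 of -0.47 (2663 bins, depth 34.3, BAF 0.68), against -0.04 in 15376T (BAF 0.29). The difference of 0.43 was 4.50 times the larger SD. The own depth of Cxcl14 in 14837T was 55.5 over 3 bins, above its segment by a log2 of 0.69 and above the 2-copy depth by 0.22. This was higher against the segment than in 80.3% of the 1050 listed genes with 2 to 4 bins. Thus the segment was called lost, while the uncorrected depth of the 3 bins of the gene itself was above the 2-copy depth. The 303 listed genes of that segment had a median own depth above the segment by a log2 of 0.18.

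Ccl28 (chr13:119623819-119654359), a ligand of Ccr10, could be placed only by its position. The segment at its midpoint had a log2 of -0.03 and 2 copies in 15376T, and -0.62 and 1 copy in 14837T (140 bins). It is left out of the counts above.

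The rest of the ligands were at 2 copies in both lines. Ccl22, Cx3cl1 and Ccl17, clustered on chromosome 8, had a log2 of 0.11 in 15376T and 0.050 in 14837T. Ccl24, an eotaxin, had 0.094 and 0.050, and Xcl1, the ligand of Xcr1, -0.03 and -0.03. Cxcl12 (chr6:117168535-117181368), the ligand of Cxcr4, had a log2 of 0.022 and -0.05, with a BAF of 0.82 in 15376T and 0.40 in 14837T. Its segments differed in length, 3.88 Mb in the first line and 127 Mb in the second, so these fractions cover different regions. Over the 36 genes at 2 copies in both lines, log2 ranged from -0.09 to 0.11 in 15376T and from -0.11 to 0.10 in 14837T.

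Set beside their ligands, the receptor genes lost in 15376T have ligand genes on several chromosomes. Ccl2 and Ccl7 (for Ccr2), Ccl3 and Ccl5 (for Ccr1), Ccl11 and Ccl24 (for Ccr3), Ccl17 and Ccl22 (for Ccr4), Ccl1 (for Ccr8), Cxcl16 (for Cxcr6), Xcl1 (for Xcr1) and Cx3cl1 (for Cx3cr1) were all at 2 copies in that line, and Ccl25 (for Ccr9) was at 1 copy. Several of these ligands and receptors are recent paralogs, and how reads that match more than 1 gene were counted is not given in the sources used here.

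Of 29 other genes of the chemokine pathway (atypical receptors, the peptidase Dpp4 and signaling proteins), 8 were lost and 5 gained in 15376T, and 7 were lost and 6 gained in 14837T. The shares lost were 27.6% and 24.1%, near the 30.0% and 28.8% of all genes, and the shares gained were 17.2% and 20.7%, against 9.13% and 21.5%. In both lines 5 were lost (17.2%, against 22.4% of all genes) and 4 gained (13.8%, against 6.87%). None of these differences was tested. The atypical receptors Ackr1 and Ackr3, which bind chemokines without G protein signaling, were at 2 copies in both. Ackr4 was called lost in both, with a log2 of -0.62 in 15376T and -0.27 in 14837T. The second value is close to the threshold of -0.25, and the uncorrected depth of that segment, 46.9, was near the 2-copy depth of 47.5. Ackr2 and Ccrl2 share the chromosome 9 segment of the lost receptors and its values.

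The call differed for 7 of the 29. Besides Ackr2 and Ccrl2, Gnai2, an inhibitory G protein subunit that couples to chemokine receptors, had a log2 of -0.46 in 15376T (lost) and 0.10 in 14837T. Gng2, a G protein gamma subunit, was gained in 15376T (0.64) and lost in 14837T (-0.33). Grk6, a kinase that desensitizes receptors, shares the segment of Cxcl14 and was lost in 14837T. Rac1 (0.32) and Vav1 (0.31), which act in cell migration, were gained in 14837T and at 2 copies in 15376T.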

How the data were processed

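WES libraries of 2 lines (1 each) were used, and the other samples of the series were not analysed here. Those include an exome library labelled WES-WT, and whether it served as the reference of the ratios is not stated. An engineered allele of the mice is not reported here. The authors deposited log2 ratios of coverage per segment, BAF as a fraction, read depth as an uncorrected coverage signal, and a weight, a score that was not used. The reference of the ratios, the aligner and the caller are not given in the sources used here. The submitters' processing notes name the build mm10. The integer copies follow the default log2 thresholds of CNVkit (-1.1, -0.25, 0.2 and 0.7) with 0 exceptions. Gene positions are from RefSeq GRCm38.p6, and starts were written counting from 1.

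Genes were looked up in the gene column of the segments. Genes in 1 segment (21056 and 21019 autosomal names) gave the background shares, and genes in more than 1 (83 and 120) were left out. Clusters are genes under 5 Mb apart. The genes named are the whole set, the genes next to the border between Ccl1 and Ccl5, and some of a list of pathway genes. Other borders within 1 Mb of a gene of the set are given by distance or position, without their genes, or are left out. Those left out lie near Cxcl12 and near Ccl22, Cx3cl1 and Ccl17. Of the list of pathway genes, the atypical receptors and those whose call differed are named. The list has 31 names, of which 29 were found; Adrbk1 and Adrbk2 are older names of Grk2 and Grk3. Members and lists were chosen with earlier results of these data known. Alternatives were thresholds of 0.3 and 0.5, recentred log2, midpoints, own depth and a minimum of 5 bins. Python 3.11.15, numpy 2.4.6, pandas 2.3.3 and matplotlib 3.10.9 were used. Simulated segments checked only the lookup of a gene's segment and its call, not the other steps. The tables give neither the spread between bins nor read counts, and values are therefore printed without intervals.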

Additional observations from a re-analysis of the deposited data

How the results depend on the processing

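No paired analysis was possible because the WES data hold a single library of either line. At an absolute log2 of 0.3 the genes gained in 14837T fell from 1 to 0 (Ccr6). At 0.5, the genes lost and gained in 14837T were 0 and 0. By midpoints, 2 genes were lost in 14837T, since Ccl28 was added. With at least 5 own bins, 1 gene was lost in 15376T (Ccl25), and 0 were lost and 0 gained in 14837T, because only Ccl25 has that many. By own depth, 4 of the 10 listed genes were lost in 15376T (Ccl25, Ccr4, Cx3cr1 and Ccr8) and 0 in 14837T. The share of all listed genes lost by own depth is not given here, so that count is not particular to these genes. Own depth exceeded that of the segment in 62.9% of all listed genes of 15376T. The use of own depth turned the sign of Ccr9 (0.19), Ccr2 (0.091) and Cxcl14 (0.22, above the threshold of a gain), and the cause was not tested. The 12 genes with different calls were 11 at 0.3, 10 at 0.5, 12 after recentring and 13 by midpoints. For all genes, shares are given at the main thresholds only (29.3% with a different call), so these other counts have no background beside them. Recentring changed 0 of 96 calls. A BAF minimum of 0.5, chosen after the data were seen, gave the same 13 and 11 genes on chromosome 11. A ratio of own depths between the lines gave no value, since 0 genes are listed in both tables. Of the 9 lost receptors, 6 have 1 bin of their own.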

Other observations

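Ccl19, Ccl21a and Ccl27a, ligands on chromosome 4 that are outside the named set and were picked after their values were seen, had the opposite call in the 2 lines. Their segment had a log2 of -0.59 (1 copy) in 15376T and 0.33 (3 copies) in 14837T. These genes share that segment's values, and the share of all genes with this pattern is not given here. Ccl19 and Ccl21a are the ligands of Ccr7, which was at 2 copies in both lines, and Ccl27a is a ligand of Ccr10. Ccl21a and Ccl27a have near-identical copies close by, and how reads were shared among these is not given in the sources used here, so the values of these genes are uncertain.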
